A study of Mus musculus with 21 samples.

Results

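Immunoglobulin kappa variable genes (Igkv) were followed in whole livers of mice bred to lose Gata4 in sinusoidal endothelium and in livers of control siblings. The members are all rows of the deposited expression table whose symbol in the platform annotation begins with Igkv, 102 of 25428 rows, and they fall into 19 subgroups by the number before the dash. The rows were chosen by symbol, but the family was selected on its knockout minus control differences in these same livers, which were already known, so those differences and the calls made on them are a description and support nothing. RefSeq lists 162 Igkv genes on mouse chromosome 6 (assembly GRCm38.p6), of which the other 60 were not analysed here.

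The study profiled whole liver RNA of 21 mice on Affymetrix arrays, 1 array for each animal. Knockout mice (n = 10) came from a cross of the Clec4g-icre driver, C57BL/6N-Tg(Clec4g-icre)1.1Sgoe, with mice carrying floxed Gata4, Gata4tm1.1Sad/J; the driver places Cre under regulatory sequence of Clec4g, a lectin gene of liver sinusoidal endothelium. Controls (n = 11) carry the genotype label wt; the sources used here give neither the alleles they held (driver or floxed) nor the sex and age of either group. Both groups received the diet labelled std. The sample numbers in the descriptions fall into 2 blocks without gaps, here called runs: run 1 held 5 controls and 4 knockouts, run 2 held 6 of each. The labels give no batch, and every genotype difference was adjusted for run.

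A kappa light chain is encoded by a variable segment joined by DNA recombination to a joining segment, which is then spliced to the constant gene Igkc. A B cell as a rule keeps a single productive kappa rearrangement, and its descendants share it, so the abundance of different Igkv transcripts in a tissue follows which B cell and plasma cell clones are there. Plasma cells, the antibody-secreting end stage, hold far more immunoglobulin mRNA than resting B cells. In a bulk sample, more cells of a type and more RNA in each cell cannot be told apart, and Igkv genes of a subgroup are similar enough in sequence that array probes may read relatives, so values of single members are uncertain.

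Values are log2 signals made by the robust multi-array average (RMA), with a lower quartile of 2.98, a median of 3.75 and an upper quartile of 6.12 on every array. Arrays correlated with the mean of the others of their genotype at 0.986 to 0.994, and no array was a copy of another. Gata4 itself stood at 6.73 ± 0.29 (SD, n = 11) in control livers and 6.53 ± 0.23 (n = 10) in knockouts, and the difference of -0.19 ± 0.10 (SE) did not pass. The driver is meant for sinusoidal endothelium alone, and whether the probes lie in the deleted part is not known. The mean over the 7 measured hepatocyte genes lay between 12.9 and 13.0 in every liver, and none passed (3 had an unadjusted p under 0.05 in limma). Of 8 sinusoidal endothelial genes 4 were lower in knockouts, as were 4.05% of all rows. Among them, Clec4g stood at 7.78 ± 0.73 (SD) in controls against 6.90 ± 0.56 in knockouts. Control replicate 3 stood apart in the kappa constant gene Igkc, at 11.2 against 7.06 to 9.74 in the other 10 controls, and knockout replicate 6 had the highest Igkv signal; counts of called genes, breadth and correlations are therefore also given without both livers.

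The mean signal of the Igkv genes was higher in most knockout livers than in most controls, by amounts that differed from liver to liver. Averaged over all 102 genes, the log2 signal was 3.27 ± 0.20 (SD, n = 11) in controls, with a lowest value of 3.13, a median of 3.18 and a highest of 3.78. In knockouts it was 3.87 ± 0.40 (SD, n = 10), from 3.42 to 4.80 with a median of 3.80. All controls except replicate 3 lay at or below 3.46, and 9 of 10 knockouts lay above that value, but only 5 lay above control replicate 3. Knockout replicate 6 held the highest mean, 4.80, against 3.42 to 4.12 in the other 9. The same order of groups was seen within run 1 (controls 3.29 ± 0.28, n = 5; knockouts 3.73 ± 0.32, n = 4) and run 2 (3.25 ± 0.13, n = 6; 3.96 ± 0.45, n = 6; all SD).

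**Figure D1:**
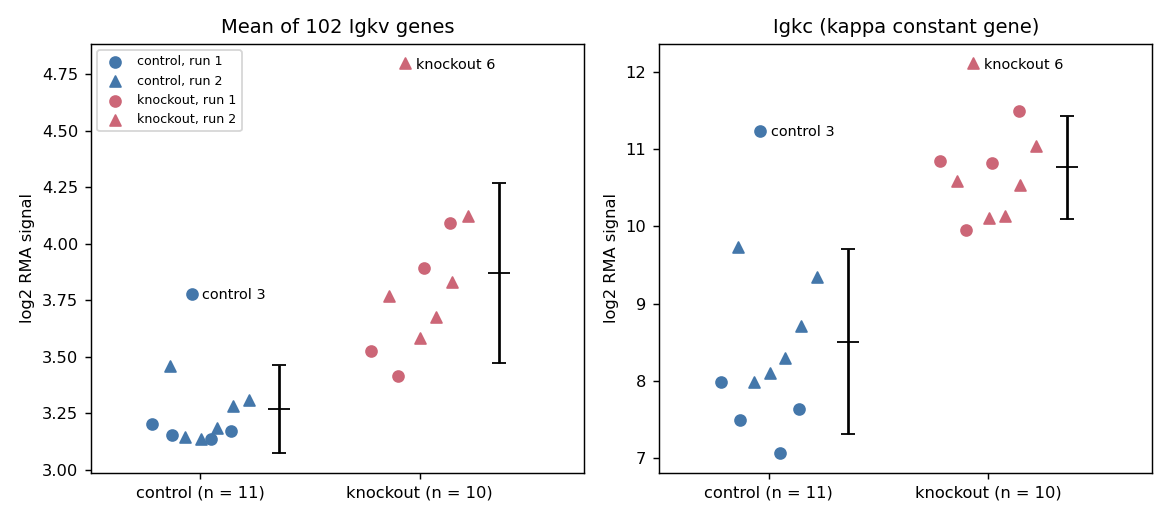
Mean log2 RMA signal of the 102 Igkv genes (left) and of the kappa constant gene Igkc (right) in each liver, with circles for run 1, triangles for run 2 and bars for mean ± SD over livers. Control replicate 3 sits among the knockouts in both panels, and knockout replicate 6 is the highest of all 21 livers in both.

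At an adjusted p under 0.05 in the fit over all rows (limma, Benjamini-Hochberg), 27 of the 102 genes were higher in knockouts and 1 was lower. Of all rows, 3.28% were higher and 4.05% lower by the same rule, 7.33% in all; because the family was singled out on this contrast, nothing is read from the count. The median knockout minus control difference was 0.45 over the 102 genes (quartiles 0.056 and 1.11), against -0.01 over all rows, and 86 of 102 genes had a positive difference. The difference exceeded 1, a doubling of signal, in 30 genes, of which 20 passed the threshold and 10 did not; 0.617% of all rows exceeded 1. Those 10 had a median standard error of 0.43, against 0.29 for the 20. All 27 higher genes had a positive difference in each run, and in 15 of them all 10 knockout livers lay above the control mean of their run. The calls pooled these runs and livers, so such agreement was favoured by the choice of genes and is not replication. Without control replicate 3 the higher genes numbered 37, without knockout replicate 6 they numbered 29, and without both 39. Of all rows, 3.86%, 3.34% and 4.03% were higher in these fits. Within run 2 alone 23 were higher, and 2.17% of all rows. Within run 1 alone, with 5 controls and 4 knockouts, limma called 0 in either direction (at an unadjusted p under 0.05, 23 were higher and 3 lower). Of all rows 2 were called higher there, and 5.4% were higher at the unadjusted threshold.

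Igkv1-110 had the largest difference. Its log2 signal ran from 2.81 to 5.17 with a median of 3.38 in controls, and from 4.62 to 7.82 with a median of 6.37 in knockouts. The groups overlapped, with 8 of 10 knockouts above the highest control, and the fitted difference was 2.55 ± 0.38 (SE), or 5.85-fold. Igkv1-135 extended from 3.30 to 5.25 (median 3.87) in controls and from 4.49 to 7.52 (median 6.12) in knockouts. Here 9 of 10 knockouts lay above every control and the difference was 2.16 ± 0.30. These 2 genes were also the most widely shared: each exceeded the control mean of its run by more than 1 in 9 of 10 knockout livers, and in 2 and 1 controls.

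Igkv10-96 ran from 2.50 to 5.38 (median 3.19) in controls and from 3.39 to 7.76 (median 5.67) in knockouts, with a difference of 2.03 ± 0.45. Igkv1-117 ran from 2.53 to 6.43 (median 3.30) in controls and from 3.92 to 7.56 (median 5.56) in knockouts, and its difference of 1.96 ± 0.51 ceased to pass without knockout replicate 3. The highest controls of both genes overlapped the knockouts: 6 of 10 knockouts lay above all controls for Igkv10-96 and 4 of 10 for Igkv1-117, whose highest control was replicate 3.

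Igkv1-88 ran from 2.93 to 3.94 (median 3.16) in controls and from 3.03 to 6.59 (median 5.15) in knockouts, a difference of 1.60 ± 0.39. In this gene the knockouts themselves were split, 7 above every control and 3 at or below the control mean of their run. Igkv15-103, the single member of its subgroup, ran from 3.14 to 4.11 (median 3.40) in controls and from 3.89 to 7.55 (median 5.02) in knockouts, a difference of 1.59 ± 0.36, with 9 of 10 knockouts above every control. Igkv4-70 ran from 2.26 to 3.71 (median 2.66) in controls and from 2.89 to 6.98 (median 3.70) in knockouts, a difference of 1.42 ± 0.35. Only in Igkv6-32 did the groups not overlap at all: controls ran from 2.35 to 2.56 and knockouts from 2.65 to 4.34, a difference of 0.74 ± 0.16. Of all rows, 0.0905% had every knockout above every control and 0.0393% every knockout below; no Igkv gene was of the second kind. Igkv6-32 was chosen for this after its values were seen, and its controls lay below the lower quartile of the arrays.

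**Figure D2:**
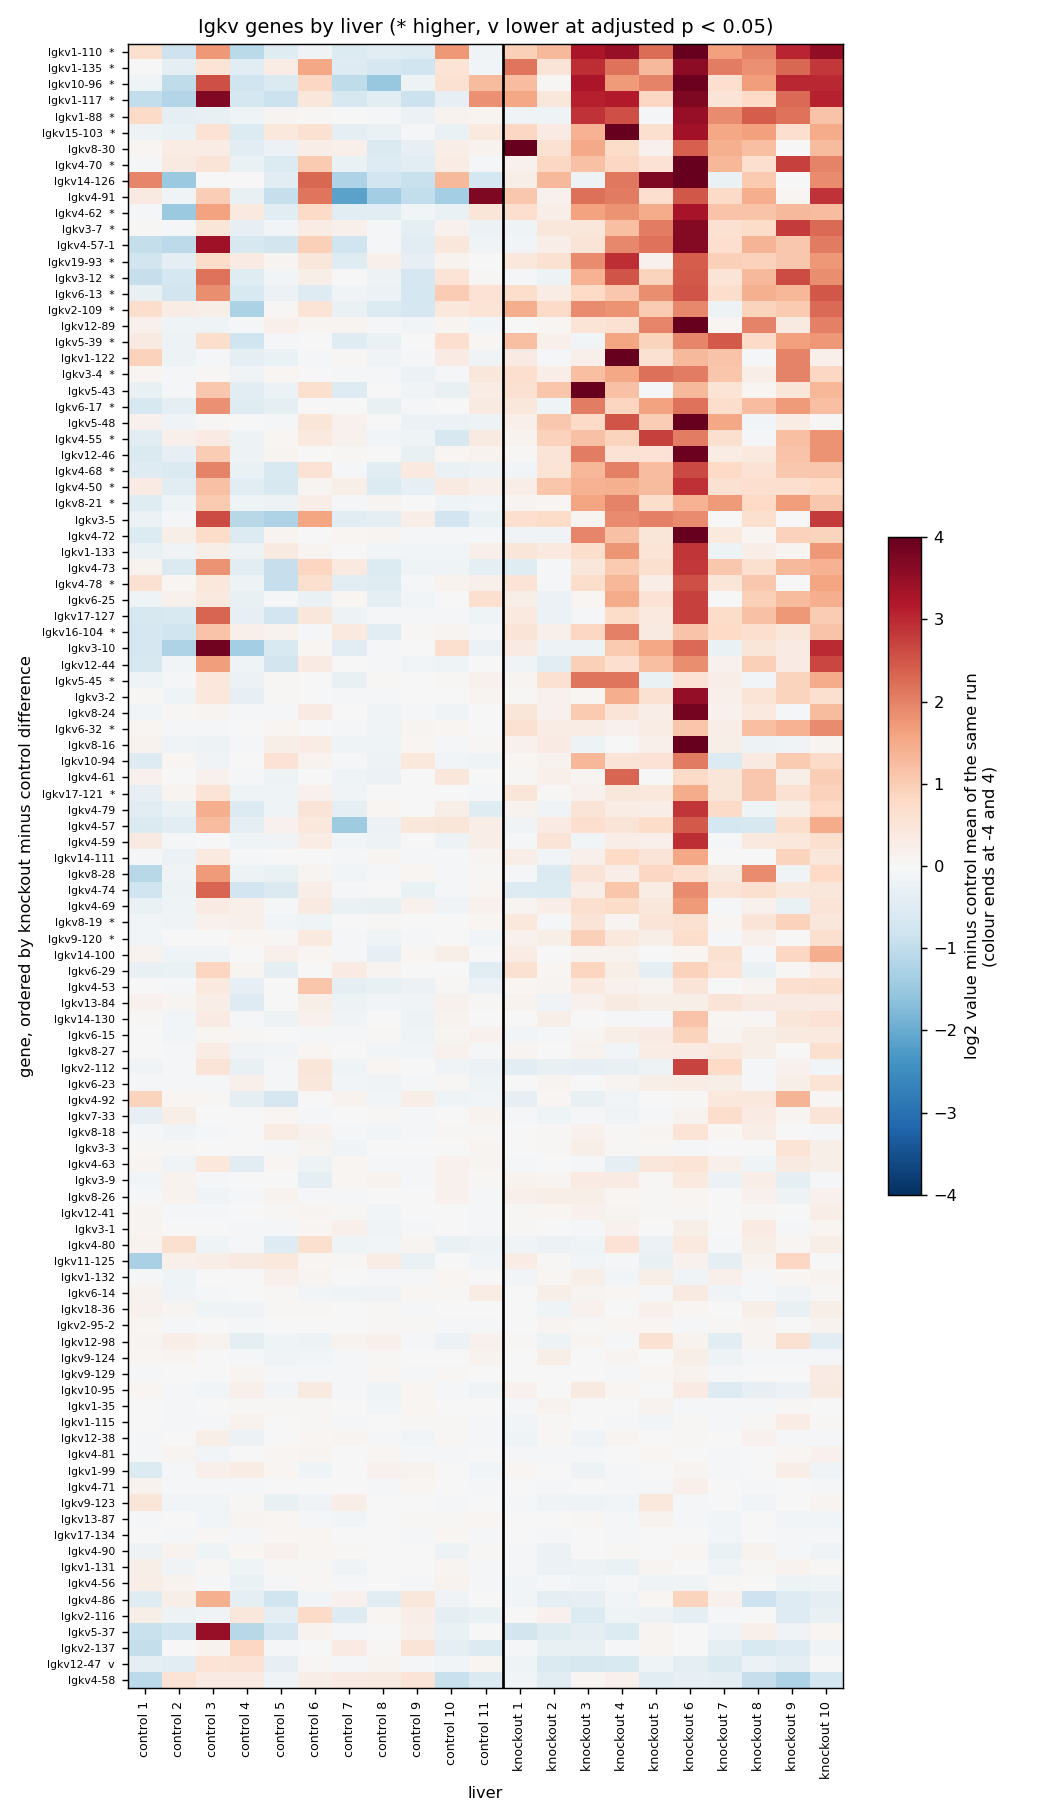
Each of the 102 Igkv genes (rows, ordered by knockout minus control difference) in each of 21 livers (columns), as the log2 deviation from the controls of its run; a control is set against the other controls. The upper rows are red in most knockouts and many of them in control replicate 3, which has 25 genes above 1, and knockout replicate 6 is the reddest column. Most of the lower rows are near 0. Among the exceptions are Igkv5-37 and Igkv4-86, which are high in control replicate 3.

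At the edge of the threshold, the last genes to pass were Igkv5-45 (0.80 ± 0.24, SE) and Igkv4-78 (0.85 ± 0.26), at limma adjusted p of 0.0486 and 0.0491, and the first that did not were Igkv8-30 (1.54 ± 0.47) and Igkv12-46 (1.11 ± 0.35), at 0.0514 and 0.0553. When livers were left out singly, the call of Igkv5-45 was lost for 17 of the 21, that of Igkv4-78 for 16, that of Igkv9-120 for 11 and that of Igkv3-12 for 6. The calls of 22 of the 27 higher genes held whichever single liver was left out.

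The difference was spread over subgroups rather than held by a single subgroup. At least 1 member was higher in 13 of 19 subgroups, beside 3.28% of all rows. In 11 subgroups the mean deviation of the members from the control mean of the run was above 0 in all 10 knockouts. A subgroup mean can be carried by 1 gene, as in Igkv2, where 1 of 5 genes was higher and the median difference was 0.04. Of the 19 subgroups, 6 hold a single gene. In 6 subgroups the mean deviation exceeded 1 in no knockout. In the largest subgroup, Igkv4, 6 of 26 genes were higher and the median difference was 0.52. In Igkv1, 4 of 11 were higher (Igkv1-110, Igkv1-135, Igkv1-117 and Igkv1-88), with a median of 0.86, and the other 7 included Igkv1-131 at -0.06 ± 0.05.

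In Igkv3, 3 of 9 were higher, with a median of 0.81; Igkv3-5, its brightest member, differed by 1.07 ± 0.40, which did not pass. In Igkv5, 2 of 5 were higher, with a median of 1.14, led by Igkv5-39 (1.21 ± 0.24). In Igkv6, 3 of 8 were higher, with a median of 0.52, led by Igkv6-13 (1.30 ± 0.28), and in Igkv8, 2 of 9, with a median of 0.44. Igkv8-28, the brightest of Igkv8, differed by 0.44 ± 0.24, which did not pass.

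Median differences were near 0 in Igkv2, Igkv9 and Igkv12 (0.04, 0.03 and 0.08), which held 1 of 5, 1 of 4 and 0 of 7 higher genes. Igkv14 had a median of 0.40 and 0 of 4 higher genes. At an unadjusted p under 0.05 in limma, 4 of the 7 Igkv12 genes and 4 of the 4 Igkv14 genes were higher. The brightest members of Igkv9 and Igkv12, Igkv9-123 (-0.02 ± 0.07) and Igkv12-98 (0.04 ± 0.12), did not pass. The exception within Igkv2 was Igkv2-109, which ran from 3.14 to 4.83 (median 4.36) in controls and from 4.18 to 6.64 (median 5.51) in knockouts, a difference of 1.29 ± 0.26 with 9 of 10 knockouts above every control. Differences also spread widely within the subgroups with many higher genes, from -0.41 to 1.42 in Igkv4 and from -0.06 to 2.55 in Igkv1.

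Of the small subgroups, the single members of Igkv15, Igkv16 and Igkv19 were all higher. Igkv19-93 ran from 3.11 to 4.30 in controls and from 4.10 to 6.66 in knockouts (1.32 ± 0.28), with 8 of 10 knockouts above every control. Igkv16-104 ran from 3.01 to 4.55 and from 3.85 to 5.68 (0.82 ± 0.20), and only 3 knockouts lay above every control. The single members of the other 3 such subgroups did not pass: Igkv7-33 had 0.12 ± 0.09, Igkv11-125 0.06 ± 0.15 and Igkv18-36 0.04 ± 0.06. Igkv10 and Igkv17 had 1 higher gene each, and neither of the 2 Igkv13 genes passed (1 was higher at an unadjusted p under 0.05). In Igkv10, beside Igkv10-96 at 2.03, Igkv10-95 differed by 0.03 ± 0.10 and did not pass; its controls ran from 3.08 to 3.58 and its knockouts from 2.75 to 3.65.

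Within Igkv3, Igkv3-7 ran from 2.52 to 3.21 in controls and from 2.66 to 6.50 in knockouts (1.37 ± 0.32), with 9 of 10 knockouts above every control. Igkv3-4 ran from 2.26 to 2.83 and from 2.70 to 4.64 (1.20 ± 0.21), with 8 of 10. Igkv3-12 overlapped more, with 3.59 to 6.42 in controls, 4.47 to 7.20 in knockouts and 3 of 10 above every control (1.31 ± 0.36). Within Igkv4, Igkv4-62 ran from 3.76 to 6.25 and from 5.22 to 8.22 (1.38 ± 0.30), Igkv4-55 from 2.71 to 3.56 and from 3.19 to 5.96 (1.13 ± 0.25), and Igkv4-50 from 2.30 to 3.76 and from 3.07 to 5.69 (1.11 ± 0.25). The highest liver was not the same in these 6 genes: it was knockout replicate 6 in Igkv3-7, Igkv4-62 and Igkv4-50, replicate 5 in Igkv3-4 and Igkv4-55, and replicate 4 in Igkv3-12.

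Of the higher genes, the smallest differences were found in Igkv8-19 and Igkv9-120. Igkv8-19 ran from 2.52 to 2.91 in controls and from 2.68 to 3.59 in knockouts (0.40 ± 0.09), and Igkv9-120 from 2.39 to 2.89 and from 2.52 to 3.41 (0.35 ± 0.10). Neither exceeded the control mean of the run by more than 1 in any knockout, and their standard errors were below the family median of 0.20. Igkv17-121 (0.60 ± 0.13) exceeded it in 2 knockouts.

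Breadth was counted in each liver as the number of subgroups whose members lay on average more than 1 above the control mean of the run, a control being set against the other controls. It was 0 in 10 of 11 controls and 3 in control replicate 3. In knockouts it was 13 in replicate 6, 8 in replicate 10, 6 in replicate 4, 5 in replicate 3, 3 in replicate 9, 2 in replicate 5, 1 in replicates 7 and 8, and 0 in replicates 1 and 2, a median of 2.5. Breadth therefore overlapped between genotypes. Counted by genes, 5 to 53 members lay more than 1 above the control mean of their run in a knockout liver (median 22.5), against 25 in control replicate 3 and 0 to 6 in the other 10 controls. Without control replicate 3 and knockout replicate 6, breadth was 0 in all 10 controls and 0 to 8 in the 9 knockouts (median 2), and the genes above 1 numbered 0 to 6 and 7 to 39. With a threshold of 0.5 the median breadth of knockouts was 9, with 10 subgroups in control replicate 3.

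**Figure D3:**
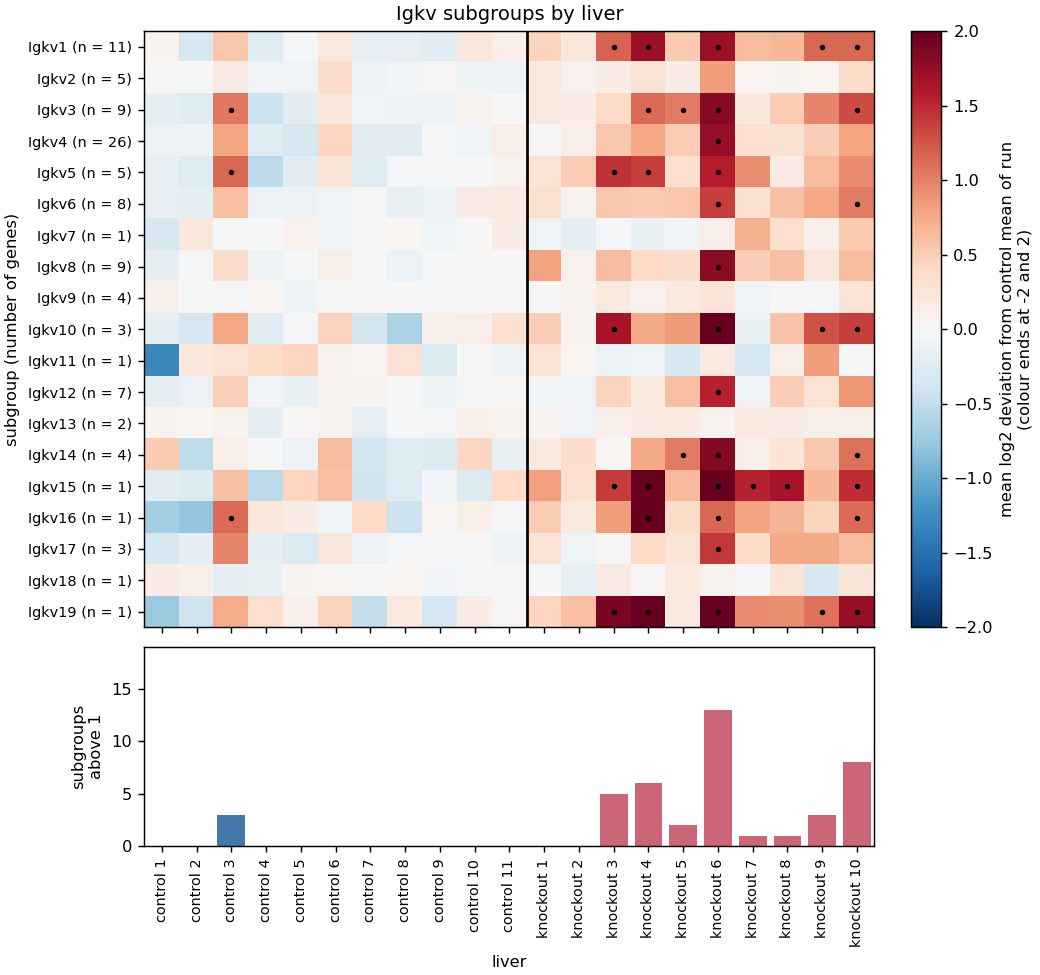
Mean log2 deviation of each Igkv subgroup from the control mean of the same run in each liver (top; dots mark deviations above 1), and the number of subgroups above 1 in each liver (bottom). Knockout replicate 6 has 13 of 19 subgroups above 1, knockout replicates 1 and 2 have none, and control replicate 3 is the only control with any.

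The genes that stood highest differed between livers. Among the 10 knockouts, 8 different genes had the largest deviation of the liver, and Igkv1-110 was the leading gene in 3. Among the 11 controls, 9 different genes led, so this variety was not particular to knockouts. Of the 102 genes, 44 exceeded the control mean of the run by more than 1 in no knockout, 15 in 1 or 2 knockouts, 39 in 3 to 7, and 4 in 8 or more; those 4 were Igkv1-110, Igkv1-135, Igkv10-96 and Igkv4-62. In controls, each set against the other controls of its run, 72 genes exceeded this level in none, 23 in 1 and 7 in 2 or more. Knockout replicate 6 had the highest value of all 21 livers in 42 genes, and knockout replicate 10 in 13.

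Some genes stood far higher in 1 liver than in any other. In 9 genes, listed here because of their values, the highest liver exceeded the next by more than 2 on the log2 scale, as 0.232% of all rows did, and none of the 9 passed the threshold between genotypes in limma (6 had an unadjusted p under 0.05). The clearest was Igkv8-16, at 9.18 in knockout replicate 6 and between 2.54 and 3.04 in the other 20 livers. Igkv1-122 reached 9.06 in knockout replicate 4, with 4.76 in the next liver and a control median of 2.74. Igkv8-30 reached 8.71 in knockout replicate 1, a liver in which 7 genes exceeded the control mean of the run by more than 1, and stood at 5.53 in the next liver. In that liver the second largest deviation, of Igkv1-135, was 2.13, against 5.82 for Igkv8-30.

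Igkv5-43 reached 7.64 in knockout replicate 3 (next 4.10). Igkv12-89, Igkv4-72, Igkv8-24 and Igkv4-59 reached 8.29, 7.07, 6.34 and 5.39 in knockout replicate 6, where Igkv8-16 was also high (next 5.06, 4.87, 3.77 and 3.06). The ninth, Igkv5-37, was high in a control: it stood at 6.14 in control replicate 3 and between 2.44 and 2.94 in all other livers. So 8 of the 9 were highest in a knockout, from 4 different livers, and 5 of those in replicate 6. Most of the 8 were also raised by more than 1 over the control mean of the run in other knockouts. With the highest liver included, Igkv8-30 was raised in 6 knockouts, Igkv5-43 in 5, and Igkv12-89 and Igkv1-122 in 4 each. Igkv4-72 and Igkv8-24 were raised in 3 each, and Igkv8-16 and Igkv4-59 only in their highest liver. Without their highest liver Igkv8-30, Igkv5-43, Igkv12-89 and Igkv8-24 passed the threshold. Igkv8-30, which lay just outside it, also passed when knockout replicate 2, 4, 5 or 9 was left out singly. Igkv8-16 had a difference of 0.66 ± 0.57.

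**Figure D4:**
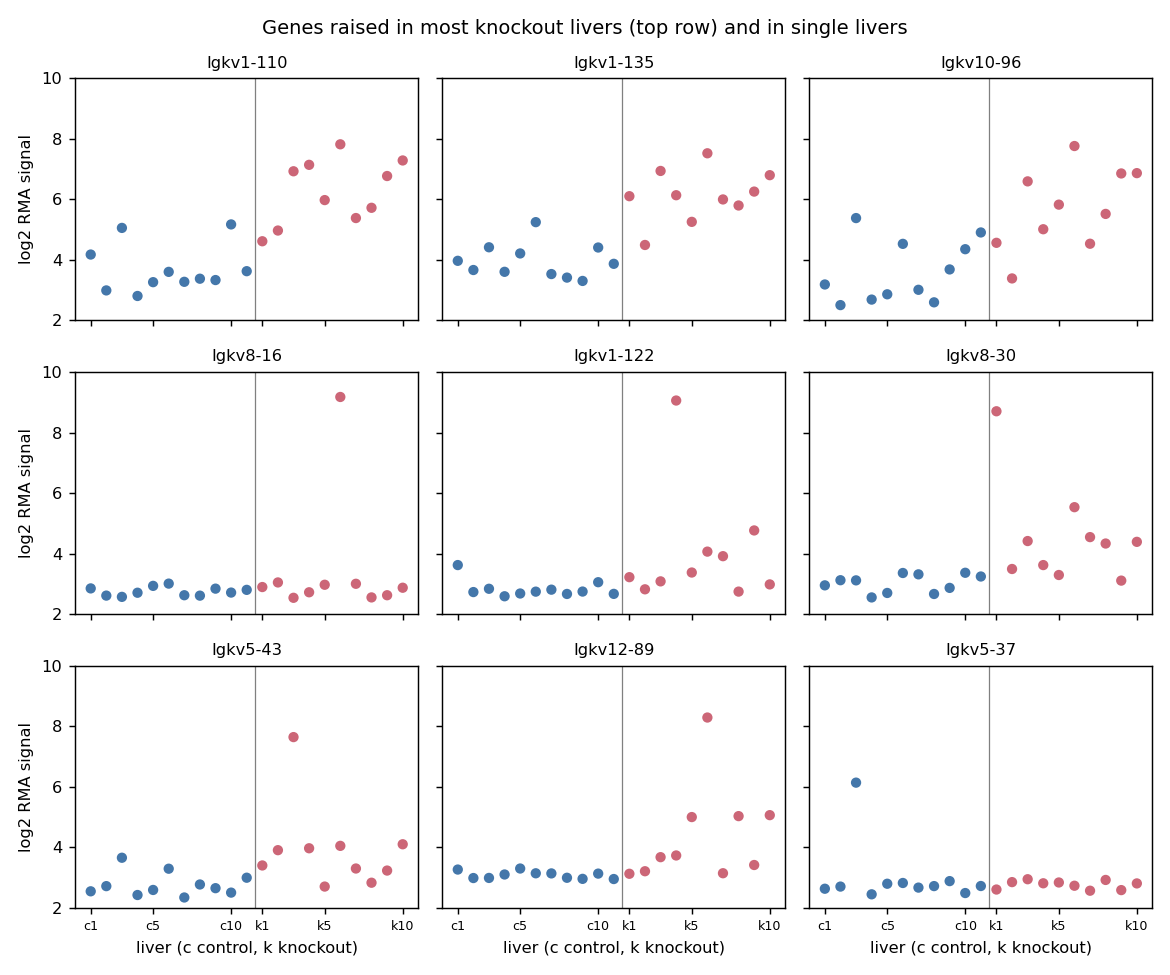
Log2 RMA signal of 9 Igkv genes in 11 control (c, blue) and 10 knockout (k, red) livers. The top row shows genes raised in 8 or 9 of 10 knockouts (Igkv1-110, Igkv1-135, Igkv10-96), and the other panels show genes whose highest liver exceeded the next by more than 2, among them Igkv8-16 at 9.18 in knockout replicate 6 and Igkv5-37 at 6.14 in control replicate 3.

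Of the 4 genes with the highest mean over the 21 livers, 1 was called. Igkv2-137 had the highest mean, with 7.70 to 9.12 in controls and 7.56 to 8.41 in knockouts, and differed by -0.23 ± 0.14, which did not pass. Igkv4-58 ran from 7.13 to 8.57 and from 6.65 to 8.31, with the lowest difference of the family, -0.41 ± 0.18, which did not pass except without control replicate 1. Igkv4-74 ran from 6.80 to 9.34 and from 6.92 to 8.90 (0.44 ± 0.28, not passed), its highest liver being control replicate 3. The called gene was Igkv4-68, higher in knockouts by 1.11 ± 0.29, with 6.11 to 8.18 in controls and 6.49 to 9.19 in knockouts. Signal strength is that of different probes and gives no order of transcript amounts.

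At the other end, 19 of the 102 genes stayed below the lower quartile of the arrays in all 21 livers; none was called in limma (1 had an unadjusted p under 0.05), their largest difference was 0.11, and their values may lie near background.

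RefSeq classes 94 of the 102 members as variable segments and 8 as variable pseudogenes, which cannot encode a working chain. All 27 higher genes were among the 94, and the only lower gene of the family, Igkv12-47, was a pseudogene. Igkv12-47 ran from 3.55 to 4.35 (median 3.65) in controls and from 3.10 to 3.69 (median 3.29) in knockouts, a difference of -0.39 ± 0.10; each of the 10 knockouts was below the mean of its own controls. Leaving out knockout replicate 3 ended this call. Of the other pseudogenes, Igkv14-126 differed by 1.41 ± 0.57, which did not pass; it ran from 2.23 to 5.89 in controls and from 3.22 to 8.55 in knockouts. It was the only pseudogene higher at an unadjusted p under 0.05. The other 6 had differences from -0.19 to 0.04. The median was -0.03 over the 8 pseudogenes and 0.54 over the 94 segments. The pseudogenes Igkv2-95-2, Igkv1-115, Igkv13-87 and Igkv17-134 stayed below the lower quartile of the arrays in every liver. The median difference was 0.03 over all 19 genes that did so. The part of dim signal in the difference between the classes was not tested.

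The higher genes lay along the whole locus. Ordered by RefSeq position on chromosome 6 and divided into sets of 34, the set nearest the joining genes held 9 higher genes, the middle set 8 and the farthest set 10. The median differences of these sets were 0.42, 0.59 and 0.29. Positions are used only for order, since no build is named for the array in these sources.

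**Figure D5:**
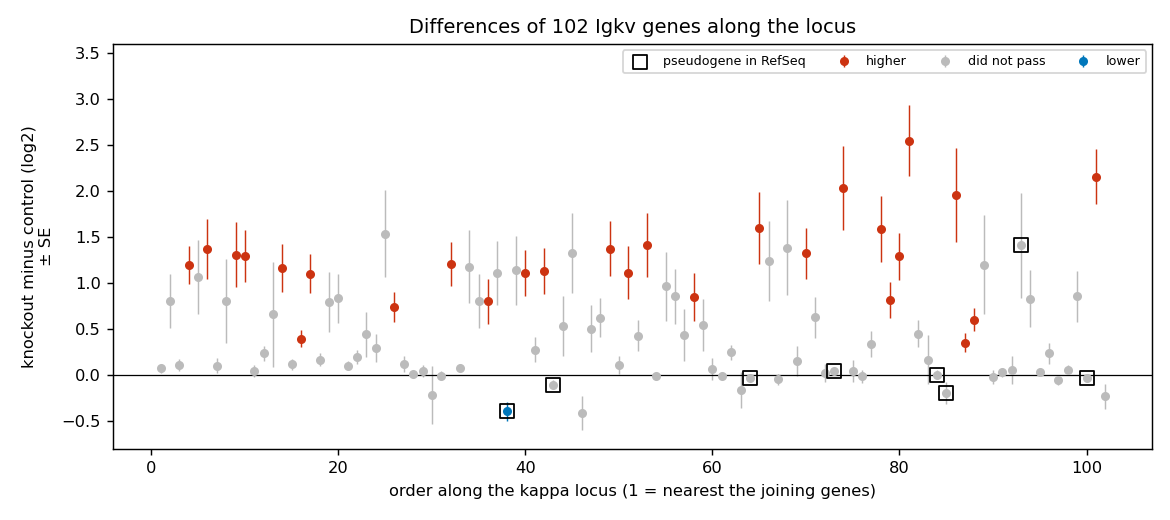
Knockout minus control difference (log2, bars are SE) of the 102 Igkv genes against their order along the kappa locus, where 1 is the gene nearest the joining genes; red genes were higher and the blue gene lower at an adjusted p under 0.05, and squares mark RefSeq pseudogenes. Red points occur from end to end, and the highest, Igkv1-110 at 2.55, lies in the set farthest from the joining genes.

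Measures that did not enter the choice of the family were the difference between runs and its interaction with genotype. No Igkv gene differed between run 2 and run 1 in limma's test (adjusted p of 0.11 or more), and 4 of 102 did at an unadjusted p under 0.05; of all rows, 4.11% passed and 16.7% had an unadjusted p under 0.05. The lowest belonged to Igkv4-58 (run 2 minus run 1, -0.53 ± 0.18, SE), which passed without control replicate 1; without control replicate 3 the gene that passed was Igkv6-13. No gene had a genotype difference that differed between runs past the threshold (adjusted p of 0.34 or more), against 0.0315% of all rows. At an unadjusted p under 0.05 there were 8 such genes, and 10.2% of all rows. In all 8 the difference was more positive in run 2, though not always larger in size, as in Igkv1-131 (-0.19 in run 1, 0.04 in run 2). The gene with the lowest p was Igkv3-7, with a genotype difference of 0.49 in run 1 and 2.03 in run 2, an interaction of 1.54 ± 0.58. Over the family, the median genotype difference was 0.23 within run 1, 0.58 within run 2, and the median interaction 0.20.

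Most of the genes that complete the kappa transcript were called too. Beside the counts in this and the following gene lists, 3.28% of all rows were higher and 4.05% lower. Without control replicate 3 and knockout replicate 6, 4.03% of all rows were higher. Igkc ran from 7.06 to 11.2 (median 8.11) in controls and from 9.96 to 12.1 (median 10.7) in knockouts, a difference of 2.24 ± 0.41 (SE); all 10 knockouts lay above all controls except replicate 3, and 2 lay above that. Of the 4 measured kappa constant and joining genes 3 were higher, Igkc itself and Igkj1 (1.78 ± 0.33) and Igkj5 (1.53 ± 0.32). Igkj3 (0.35 ± 0.20) did not pass. The list median was 1.66, and without control replicate 3 and knockout replicate 6 it was 1.74, with 3 of 4 higher and Igkc at 2.40 ± 0.28. After centring each gene on its genotype and run, the correlation with Igkc over the 21 livers had a median of 0.40 over the 102 Igkv genes and exceeded 0.5 in 41, against a median of -0.04 over all rows; it was below 0 in 16. It was 0.32 without control replicate 3 and knockout replicate 6. Pairs of Igkv genes within a subgroup had a median correlation of 0.27 (540 pairs) and pairs from different subgroups 0.20 (4611 pairs), or 0.19 and 0.13 without those livers; these values share arrays and, for similar genes, possibly probes, and are a description.

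Lambda and heavy chain genes, which lie at separate loci, included higher genes too. Of the 3 measured lambda genes 2 were higher, Iglv2 by 1.24 ± 0.26 and Iglv1 by 1.45 ± 0.43. Of the 7 measured heavy chain constant genes 5 were higher, among them Igha (the IgA heavy chain, 1.74 ± 0.28), Ighg1 (2.20 ± 0.40) and Ighm (the IgM heavy chain, 1.93 ± 0.39). Of 94 heavy chain variable genes 19 were higher and 1 lower, with a median difference of 0.20, beside 3.28% of all rows higher and 4.05% lower. Without control replicate 3 and knockout replicate 6 the higher genes numbered 2 of 3 lambda, 5 of 7 heavy constant and 17 of 94 heavy variable genes, and 2 heavy variable genes were lower. All of these comparisons use the same livers as the Igkv genes and are not independent of them.

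Markers of B lineage cells were called in part, beside 3.28% of all rows higher. Of 12 plasma cell genes 2 were higher, Jchain (the joining chain of secreted IgA and IgM, 2.16 ± 0.40) and Fkbp11 (a secretory pathway isomerase, 0.86 ± 0.16), and the list median was 0.13. Xbp1, a regulator of secretion that hepatocytes also express, had 0.24 ± 0.10 and did not pass, and Tnfrsf17, the plasma cell receptor BCMA, was at 2.66 in controls and 2.77 in knockouts, below the lower quartile of the arrays. The mean level of the plasma cell list ran from 5.34 to 5.68 in controls and from 5.49 to 6.10 in knockouts, and 2 of the 12 genes had control means below that quartile.

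Of 13 mature B cell genes 4 were higher: Fcer2a (the IgE receptor CD23, 1.08 ± 0.08), Cd79a and Cd79b (signalling chains of the B cell receptor, 0.57 ± 0.14 and 0.54 ± 0.15) and Bank1 (a B cell scaffold, 0.45 ± 0.13). The list median was 0.21. Fcer2a is the measured gene next to Clec4g on chromosome 8, the gene the Cre driver was built from. After centring on genotype and run, Fcer2a correlated with the mean of the Igkv genes at 0.28. The values for Cd79a, Cd79b and Bank1 were 0.69, 0.79 and 0.665. The mean level of this list ran from 3.46 to 3.85 in controls and from 3.71 to 4.24 in knockouts, and the highest liver of each genotype was control replicate 3 and knockout replicate 6. None of 7 B cell precursor genes was called in limma (1 had an unadjusted p under 0.05), and their median was 0.02, with Igll1 (a surrogate light chain) at -0.22 ± 0.08, Cd24a (a surface sialoprotein) at 0.49 ± 0.28 and Dntt (the terminal transferase of V(D)J joining) at 0.15 ± 0.10. Leaving out control replicate 3 and knockout replicate 6, 2 plasma cell, 5 mature B cell and 0 precursor genes were higher, the added gene being Ms4a1 (CD20, 0.48 ± 0.15). The part of B cell or plasma cell numbers in the Igkv differences was not tested.

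Among 10 measured regulators of kappa transcription, 2 were higher, Rela (an NF-kappa B subunit found in most cell types, 0.32 ± 0.06) and Ikzf1 (a lymphoid zinc finger factor, 0.36 ± 0.11), and Spi1 (PU.1, a myeloid and B cell factor) had 0.45 ± 0.17, which did not pass; the list median was 0.23. None of 14 genes of antibody folding and secretion was called in limma (4 had an unadjusted p under 0.05); the lowest p values belonged to Pdia6 (0.22 ± 0.08), Edem2 (0.28 ± 0.10) and Sdf2l1 (0.41 ± 0.16), and the list median was 0.04. Hepatocytes, which secrete most plasma proteins, also express such genes. With control replicate 3 and knockout replicate 6 left out, 2 regulators were higher, and 1 folding gene, Sec11c, was lower (-0.32 ± 0.09).

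Some markers of other leukocytes were also higher in knockouts, and their part in the Igkv differences was not tested. Of 12 T cell genes 2 were higher, Cd3e (0.26 ± 0.07) and Trac (0.66 ± 0.19), with Trbc1 at 0.46 ± 0.20 not passed and a list median of 0.05. Of 12 neutrophil genes 1 was higher, Ngp (2.68 ± 0.58), while Mpo (1.52 ± 0.48) and S100a9 (1.66 ± 0.53) did not pass, and the list median was 1.11. At an unadjusted p under 0.05 in limma, 10 of the 12 neutrophil genes and 3 of the 12 T cell genes were higher. With control replicate 3 and knockout replicate 6 left out, 2 T cell genes and 4 neutrophil genes (Ngp, Mpo, S100a9 and Mmp9) were higher, and the neutrophil median was 0.63. The neutrophil list stood 5.14 above the control mean of the run in knockout replicate 6, the liver with the broadest Igkv signal, against 2.63 in the next knockout and 0.09 in the highest control. All 10 knockouts lay above the highest control in this list, the lowest of them at 0.16. In control replicate 3 the highest deviations of all controls were found for 7 of the 12 lists, the B lineage and immunoglobulin lists other than B cell precursors among them.

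Outside the immunoglobulin loci, the genes whose genotype- and run-centred values followed the mean of the Igkv genes most closely over the 21 livers were Atp11a (a phospholipid flippase, r = 0.92), Top2a (the topoisomerase of dividing cells, r = 0.90), H2ac11 (a histone gene, r = 0.89), Ncf4 (a subunit of the phagocyte oxidase, r = 0.89) and Knl1 (a kinetochore protein, r = 0.88), of 24490 genes compared. Without control replicate 3 and knockout replicate 6 these values were 0.73, 0.69, 0.69, 0.59 and 0.68. None of the 5 differed between genotypes past the threshold, but Top2a and Knl1 did without control replicate 3 and knockout replicate 6 (0.91 ± 0.20 and 0.37 ± 0.09).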

How the data were processed

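RNA of 21 whole livers was biotin-labelled for Affymetrix arrays (labels' protocols). The authors deposited log2 values made with RMA, per the submitters' processing notes; the sources used here name no RMA version, array type or build. RMA sets all arrays to a common distribution, so a shift shared by all genes cannot be seen, and precision is limited by the number of arrays. Each of 25428 rows is an Entrez gene; 24705 had 1 symbol and 723 none. Labels call the samples biological replicates.

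A model of genotype plus run was fitted in limma 3.58.1 (lmFit, eBayes; R 4.3.3) to all rows without a filter, with Benjamini-Hochberg adjustment over all rows and a threshold of 0.05. Run 2 minus run 1 and the genotype by run term were tested likewise. Differences are knockout minus control, with the standard error of the fit. All 102 members matched RefSeq by Entrez number. On simulated data with the spreads of these arrays, the genotype fit recovered 82% of 100 genes changed by 0.5 and 99% of 100 changed by 1 (log2), with 11 false calls among 25428 genes. The changed genes were drawn from all rows, with normal errors of equal spread in both genotypes. The median standard error was 0.08 over all rows and 0.20 over the Igkv genes, so these shares do not describe recovery in the family.

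The members and the 12 gene lists (108 of 123 genes measured) were chosen with earlier results of these data known. Named members were, by rule, the 8 largest and 4 smallest differences, the 4 highest means, the 2 genes on each side of the threshold and the brightest member of each subgroup of 4 or more; from each list up to 3 genes of lowest p were named, and the 5 genes most like the family mean. Others were named after their values were seen. Alternatives covered the run term, each run, a replicate block, normalisation, a filter on dim rows, the prior, array weights and leaving out each array. Figures were drawn with matplotlib 3.10.9.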

Additional observations from a re-analysis of the deposited data

Results flagged for a closer look

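Of 39 measures examined, 12 had a knockout liver that stood far from the other 9 by the gap to its nearest neighbour relative to the range; chance alone marks about 1 in 20 such groups, and the single-liver genes were picked for their gaps, so they are bound to be marked. The control group of 11 was not examined this way. The mean of the Igkv genes was 4.80 in knockout replicate 6, with 4.12 next. In the same liver Igkv8-16 was 9.18 (next 3.04), Igkv12-89 8.29 (next 5.06), Igkv4-72 7.07 (next 4.87), Igkv8-24 6.34 (next 3.77) and Igkv4-59 5.39 (next 3.06). Outside the family, H2ac11 was 3.69 (next 3.07) and Ncf4 6.65 (next 4.87) in that liver. Both were chosen for following the Igkv mean over these same livers, so their marking is not independent of it. Igkv8-30 was 8.71 in knockout replicate 1 (next 5.53), Igkv5-43 was 7.64 in knockout replicate 3 (next 4.10) and Igkv1-122 was 9.06 in knockout replicate 4 (next 4.76). Igkv9-123 was 3.16 in knockout replicate 5, with 2.85 next and 2.61 at the other end, all within the range of the controls.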

How the results depend on the processing

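The 27 higher genes numbered 23 to 37 and the 1 lower gene 0 to 2 when single livers were left out, and the family median ranged from 0.32 to 0.56. Of all rows, 2.22% to 3.86% were higher in these fits. From 629 to 1471 of all rows were lower in them, against 1030 with all livers, and the most were lower without control replicate 1. The median kept its sign under all alternatives tried. In run 1 alone no gene was called in either direction (0 higher, 0 lower, where 3 of all 25428 rows passed). In run 2 alone 23 were higher and 0 lower, and 2.17% of all rows were higher. With the replicate block 25 were higher and 0 lower, and 2.52% of all rows were higher. The labels do not say whether equal numbers pair the livers. Deviations of same-numbered livers correlated above 0.1 in only 2 of 10 pairs, which cannot settle it. With rows at or above the median alone, 30 members remained, 16 higher and 0 lower, with a median of 1.25. Of all rows kept there, 6.85% were higher. Leaving out control replicate 1 gave 1 gene that differed between runs (Igkv4-58), as did leaving out replicate 3 (Igkv6-13), and other single livers 0. Without control 3 and knockout 6 together, chosen after seeing the data, 39 were higher, 25 of them shared with the 27, and 4.03% of all rows were higher. Median breadth in knockouts rose from 2.5 to 9 with a threshold of 0.5 and to 11.5 when set against the highest other control of the run, where controls had a median of 2 and reached 14 (replicate 3) and 12 (replicate 6). The cause of these changes was not tested. Probe signal over background was not available in the values used, which limits what can be said of dim genes.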
